A study of Mus musculus with 9 samples.

Results

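Open chromatin around 6 transcription factor genes of otic neurogenesis, *Neurog1*, *Neurod1*, *Neurod4*, *Neurod6*, *Isl1* and *Pou4f1*, was described in cells sorted from cochlear ducts of mouse embryos. A peak belonged to a gene when its summit lay nearest to a transcription start site of that gene among all protein-coding transcripts, within 500 kb. Peaks of all lists that lay within 100 bp of each other were merged, which gave 31 regions for the 6 genes out of 69415 regions in all, from 121 of 286921 peaks. The assay was ATAC-seq, in which a transposase cuts and tags DNA that is free of nucleosomes, and each sample was represented by 1 list of peaks. The mice carried EGFP knocked into the *Sox2* coding region (strain B6;129S-Sox2tm2Hoch/J), an allele that every sample shared, so that no sample came from animals without it. The Sox2-EGFP+ lists were 2 for each of the embryonic days E12, E14.5 and E16. The Sox2-EGFP- lists were 1 for E14.5 and 2 for E16, and E12 had none. Each Sox2-EGFP+ replicate was a pool of cochlear ducts from a litter, EGFP-bright cells were sorted against cells with the least EGFP, and cochlear nerve tissue, with its Sox2-EGFP+ glia, was dissected away.

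The neurons of the cochlear ganglion and the sensory cells of the cochlea descend from a common neurosensory domain of the otic epithelium. *Neurog1* encodes the basic helix-loop-helix (bHLH) factor that commits otic progenitors to the neuronal lineage, and *Neurod1* encodes a bHLH factor that acts after it in delaminating neuroblasts. *Neurod4* and *Neurod6* encode further neuronal bHLH factors, *Isl1* encodes a LIM homeodomain factor found in otic neurons and also in prosensory cells, and *Pou4f1* (Brn3a) encodes a POU homeodomain factor of sensory neurons. Sox2 marks the prosensory cells, the progenitors of hair cells and supporting cells, so the comparison asks whether the genes of the sister lineage were open in them.

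The lists differed severalfold in length. They held 13817 and 7577 peaks at E12, 66332 and 22962 in the E14.5 Sox2-EGFP+ replicates 1 and 2, and 39314 and 65870 in the E16 Sox2-EGFP+ replicates 1 and 2. The Sox2-EGFP- lists were alike, with 23302 peaks at E14.5 and 23848 and 23899 at E16. The lists hold no reads, so the depth behind a peak is not known from them, and a missing peak was not read as closed chromatin. The study's supplementary sample table gives the reads of each sample and the percentage of reads in peaks, and both differed severalfold between samples. That percentage was highest in E14.5 Sox2-EGFP+ replicate 1 and lowest in E12 replicate 2. The cell type tags of 3 of the 4 E16 samples, Sox2-EGFP+ replicate 2 and both Sox2-EGFP- replicates, contradict the titles, by which the samples were grouped. On the side of the titles, *Sox2* had 8, 7, 6 and 7 of the 20000 highest peaks in the Sox2-EGFP+ lists of E14.5 and E16, and 3, 2 and 3 in the Sox2-EGFP- lists. *Tbx18*, a gene of otic mesenchyme, had 0, 2, 1 and 1 in Sox2-EGFP+ lists and 5, 6 and 7 in Sox2-EGFP- lists. No promoter of the 5 epithelial marker genes (*Epcam*, *Cdh1*, *Grhl2*, *Esrp1* and *Cldn6*) had a peak in any of the 3 Sox2-EGFP- lists, against 4 or 5 in the Sox2-EGFP+ lists of E14.5 and E16. The labels name all 9 samples as cochlear duct cells, and these epithelial promoter marks were absent from the Sox2-EGFP- lists.

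The DNA of 8 regions is shown. The *Isl1* regions shown, the *Pou4f1* promoter and *Neurod6* +4.2 kb were called higher in Sox2-EGFP+ lists with all peaks but not with the 20000 highest. For these *Isl1* regions, which had no Sox2-EGFP- peak, the direction was fixed. The *Isl1* promoter was also called with all peaks and is not shown. The *Neurod1* exon region and the *Neurog1* and *Neurod4* promoters were called in neither setting. Regions are named by gene and by the distance of the summit from the start site, with a minus sign for upstream positions. Each sequence is the forward strand of mm9 around the highest summit, cut back to leave out annotated untranslated sequence, and all 6 genes lie on the reverse strand. Capitals mark CAGNTG on either strand (CAGNTG or CANCTG), the E-box letters that bHLH factors of this family can bind. The stretches are chr13:117084146-117084346 (*Isl1* +15.7 kb), chr13:117087641-117087841 (*Isl1* +12.2 kb), chr13:117233475-117233675 (*Isl1* -133.7 kb), chr14:104867217-104867378 (*Pou4f1* -62 bp), chr6:55626945-55627145 (*Neurod6* +4.2 kb), chr2:79294363-79294563 (*Neurod1* +2.3 kb), chr13:56353594-56353794 (*Neurog1* -170 bp) and chr10:129717297-129717417 (*Neurod4* -21 bp).
Isl1 +15.7 kb: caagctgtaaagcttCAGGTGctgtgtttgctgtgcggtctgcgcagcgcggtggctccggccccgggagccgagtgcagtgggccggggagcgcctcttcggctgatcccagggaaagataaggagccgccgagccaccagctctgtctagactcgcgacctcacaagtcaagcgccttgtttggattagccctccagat
Isl1 +12.2 kb: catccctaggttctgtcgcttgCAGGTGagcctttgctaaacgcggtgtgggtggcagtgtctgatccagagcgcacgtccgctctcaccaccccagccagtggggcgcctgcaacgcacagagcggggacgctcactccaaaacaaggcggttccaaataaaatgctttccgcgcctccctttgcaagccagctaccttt
Isl1 -133.7 kb: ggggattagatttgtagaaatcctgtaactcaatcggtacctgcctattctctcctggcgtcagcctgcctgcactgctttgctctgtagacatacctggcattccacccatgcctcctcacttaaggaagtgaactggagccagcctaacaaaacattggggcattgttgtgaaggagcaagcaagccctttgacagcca
Pou4f1 -62 bp: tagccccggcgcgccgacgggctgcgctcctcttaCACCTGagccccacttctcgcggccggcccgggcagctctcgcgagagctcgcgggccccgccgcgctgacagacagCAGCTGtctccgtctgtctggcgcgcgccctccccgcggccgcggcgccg
Neurod6 +4.2 kb: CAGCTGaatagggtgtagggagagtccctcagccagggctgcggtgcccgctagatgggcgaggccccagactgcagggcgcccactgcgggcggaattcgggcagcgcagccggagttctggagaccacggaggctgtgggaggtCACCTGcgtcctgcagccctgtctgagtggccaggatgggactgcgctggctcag
Neurod1 +2.3 kb: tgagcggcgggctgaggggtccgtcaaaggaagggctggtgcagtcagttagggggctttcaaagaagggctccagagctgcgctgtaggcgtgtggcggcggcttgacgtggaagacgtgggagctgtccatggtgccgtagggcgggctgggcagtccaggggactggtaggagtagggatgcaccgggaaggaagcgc
Neurog1 -170 bp: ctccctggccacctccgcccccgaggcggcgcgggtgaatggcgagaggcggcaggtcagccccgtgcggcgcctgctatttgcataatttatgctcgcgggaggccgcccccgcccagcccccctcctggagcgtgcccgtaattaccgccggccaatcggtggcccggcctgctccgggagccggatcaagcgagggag
Neurod4 -21 bp: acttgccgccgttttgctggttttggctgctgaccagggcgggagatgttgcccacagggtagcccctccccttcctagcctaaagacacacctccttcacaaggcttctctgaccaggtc

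Read over 100 bp on each side of the summit, CAGNTG stood in 14 of the 31 windows of the 6 genes (45.2%) and in 47.9% of 69357 windows of all regions. CAGATG, the form bound by Neurog and Neurod proteins in many neuronal genes and a part of CAGNTG, was in 3 (9.68%), against 14.7% of all windows. The windows with CAGATG were those of *Neurog1* +28.4 kb, the *Neurod1* promoter and the *Neurod6* promoter. CAGCTG, also a part of CAGNTG, was in 6 (19.4%, all windows 16.6%), the Sox letters ACAATG in 3 (9.68%, all windows 13.4%), the homeodomain letters TAATTA in 1 (3.23%, all windows 2.11%) and the Gata letters GATAAG in 5 (16.1%, all windows 6.56%), each searched on both strands. Of the 5 windows with GATAAG, 5 belonged to *Isl1*: those at +30.1, +24.4, +15.7 and -199.6 kb and at the promoter. The median GC content was 54.2% in the windows of the 6 genes and 53.7% in all windows. A match is a description of the letters and not a binding site.

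Of the 31 regions, 24 (77.4%) had peaks in Sox2-EGFP+ lists alone, 7 (22.6%) had peaks in both cell types, and 0 had peaks in Sox2-EGFP- lists alone. Over all 69415 regions, 65.5% had peaks in Sox2-EGFP+ lists alone, 28.8% in both and 5.63% in Sox2-EGFP- lists alone. The regions with Sox2-EGFP+ peaks alone were 4 of 5 for *Neurog1*, 4 of 5 for *Neurod1*, 1 of 1 for *Neurod4*, 2 of 4 for *Neurod6*, 8 of 9 for *Isl1* and 5 of 7 for *Pou4f1*. These shares lean on list length, since there were 6 Sox2-EGFP+ and 3 Sox2-EGFP- lists and the 2 longest lists were Sox2-EGFP+. Of the 31 regions, 11 (35.5%) had peaks in those 2 lists alone, E14.5 replicate 1 and E16 replicate 2, and so had 35.4% of all regions. With the 20000 highest peaks of each list, the 6 genes had 15 regions, of which 9 (60%) had Sox2-EGFP+ peaks alone, against 35.3% of all 35065 regions at that length. These shares take in the E12 lists, and the difference was not tested. They also mix promoters with regions farther off, and the share beyond 1 kb of a start site was not counted at this length. With all peaks of each list, that share was 80% for the 6 genes and 78.5% for all regions.

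**Figure D1:**
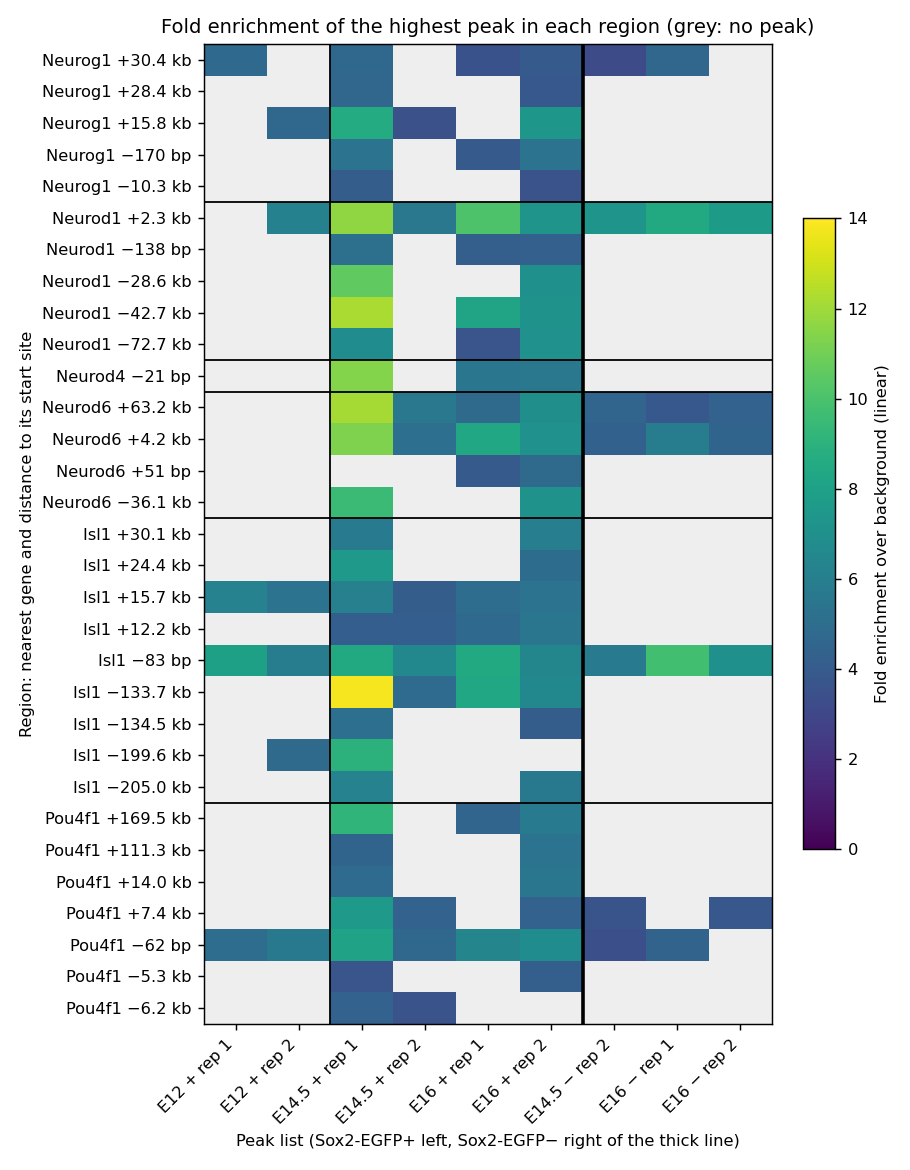
Heat map of fold enrichment over background (linear colour scale, 0 to 14) for the highest peak of each of the 31 regions (rows, by gene and distance from the start site) in each of the 9 lists (columns). Grey cells have no peak. The column of E14.5 Sox2-EGFP+ replicate 1 is the fullest, with peaks at 30 regions, and the rows filled on both sides of the thick line are the 7 regions shared by both cell types.

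The E14.5 Sox2-EGFP+ replicate 2 list, with 22962 peaks, was slightly shorter than each Sox2-EGFP- list, so that these 4 lists can be set side by side in length. They were not filtered alike. A peak was kept where another list of its cell type had one, among 6 Sox2-EGFP+ lists but only 3 Sox2-EGFP- lists. It had 12 peaks of the 6 genes, against 8 in the E14.5 Sox2-EGFP- list and 7 and 6 in the E16 Sox2-EGFP- lists. *Isl1* had 4 peaks in it and 1, 1 and 2 in the Sox2-EGFP- lists, *Pou4f1* 4 against 3, 2 and 1, *Neurod6* 2 against 2, 2 and 2, *Neurod1* 1 against 1, 1 and 1, *Neurog1* 1 against 1, 1 and 0, and *Neurod4* 0 in all 4. At this list length, *Isl1* and *Pou4f1* had more peaks in the Sox2-EGFP+ list than in any Sox2-EGFP- list, and the bHLH genes had no more than in the E14.5 Sox2-EGFP- list. For *Pou4f1*, 2 of the 4 peaks lay in 1 region, at +7.4 kb, and 2 of the 3 in the E14.5 Sox2-EGFP- list lay in the promoter region. It is a single Sox2-EGFP+ list, the share of all genes with more peaks in it was not counted, and the difference was not tested. Of its 11 regions near the 6 genes, 5 (45.5%) had no Sox2-EGFP- peak, against 32.7% of its 21019 regions in all. Those 5 were *Neurog1* +15.8 kb, *Isl1* +15.7, +12.2 and -133.7 kb, and *Pou4f1* -6.2 kb. All 5 lay more than 1 kb from a start site, and 63% of all such regions in this list had no Sox2-EGFP- peak, against 5 of 9 for the 6 genes.

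The number of peaks of the 6 genes was 4 and 6 in the E12 lists, the shortest, and 31 and 30 in the E14.5 replicate 1 and E16 replicate 2 lists, the longest. Between lists nearer in length the order did not hold, since the longer E12 list had 4 and the shorter 6. Per 10000 peaks, the Sox2-EGFP+ lists of E14.5 and E16 held 4.67, 5.23, 4.32 and 4.55 and the Sox2-EGFP- lists 3.43, 2.94 and 2.51. Every one of these Sox2-EGFP+ values was above every Sox2-EGFP- value, the latter from 8, 7 and 6 peaks. How often other sets of genes separate in this way was not counted, and the difference was not tested. The E12 lists held 2.89 and 7.92, the lowest and the highest among Sox2-EGFP+ lists, from 4 and 6 peaks.

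**Figure D2:**
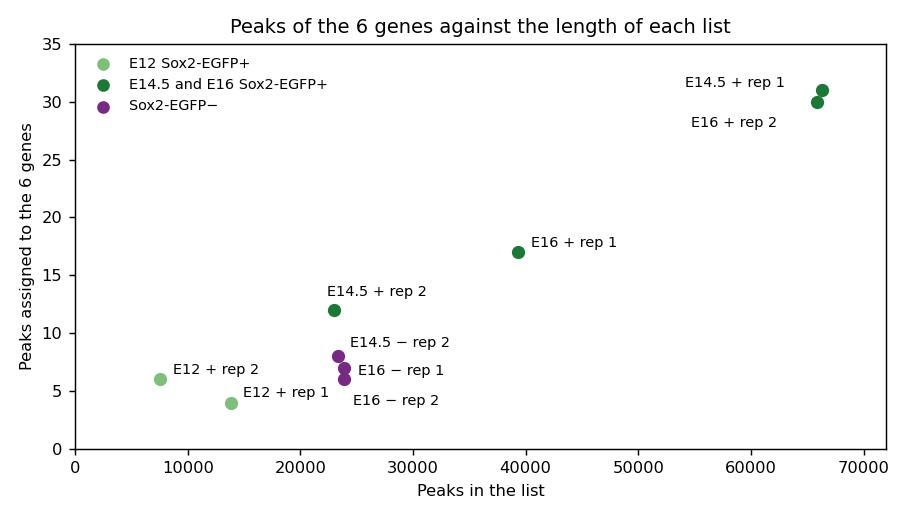
Scatter of the number of peaks assigned to the 6 genes (vertical axis) against the number of peaks in the list (horizontal axis), 1 point for each of the 9 lists, coloured by cell type and stage. The 2 longest lists have 31 and 30 peaks of the 6 genes, and among the 4 lists of 22962 to 23899 peaks the E14.5 Sox2-EGFP+ replicate 2 list, with 12, lies above the Sox2-EGFP- lists, with 8, 7 and 6.

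*Neurog1*, the determination gene (chr13:56351866-56353524, ENSMUSG00000048904.4), had 5 regions, all promoter or intergenic. Its promoter region at -170 bp (chr13:56352937-56354022) had a peak in 3 lists, with a fold enrichment over the local background of 5.33 in E14.5 Sox2-EGFP+ replicate 1, 3.95 in E16 Sox2-EGFP+ replicate 1 and 5.31 in E16 Sox2-EGFP+ replicate 2. No E12 list, no Sox2-EGFP- list and not the E14.5 Sox2-EGFP+ replicate 2 list had a peak there. Among the 39314, 66332 and 65870 peaks of the 3 lists these peaks ranked 31383, 48731 and 33750 by -log10 p, below the 20000 highest in each. The highest *Neurog1* region among Sox2-EGFP+ lists was the intergenic one at +15.8 kb (chr13:56337354-56338200), downstream of the gene. Its fold enrichment was 4.71 in E12 replicate 2, 8.59 and 3.47 in E14.5 Sox2-EGFP+ replicates 1 and 2 and 7.43 in E16 Sox2-EGFP+ replicate 2, with no peak in the other Sox2-EGFP+ lists or in any Sox2-EGFP- list. The region at +30.4 kb (chr13:56322482-56323714) was the *Neurog1* region with Sox2-EGFP- peaks, of 3.27-fold at E14.5 and 4.61-fold in E16 replicate 1. It also had peaks of 4.78-fold in E12 replicate 1, 4.69-fold in E14.5 Sox2-EGFP+ replicate 1, and 3.50-fold and 3.99-fold in the E16 Sox2-EGFP+ lists. Both cell types overlapped in these values. The 2 regions at +28.4 and -10.3 kb were open in the 2 longest lists alone, at 3.59-fold to 4.61-fold.

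*Neurod1*, the gene of delaminating neuroblasts (chr2:79292678-79296908, ENSMUSG00000034701.8), also had 5 regions. The region at +2.3 kb (chr2:79294210-79294845) lay in an exon, over coding sequence. It had a peak in 8 of the 9 lists, all but E12 replicate 1. Its fold enrichment was 6.17 in E12 replicate 2, 11.7 and 5.58 in the E14.5 and 10.1 and 7.23 in the E16 Sox2-EGFP+ lists, and 7.23, 8.51 and 7.62 in the Sox2-EGFP- lists. The 3 Sox2-EGFP- values lay within the range of the Sox2-EGFP+ values. The promoter region at -138 bp (chr2:79296770-79297196) had low peaks in E14.5 Sox2-EGFP+ replicate 1 (5.17-fold) and in the E16 Sox2-EGFP+ lists (4.23-fold and 4.29-fold) and none in a Sox2-EGFP- list. An upstream intergenic region at -42.7 kb (chr2:79339272-79339849) had higher peaks in the same 3 lists, of 12.2, 8.20 and 7.21-fold. The others, at -28.6 and -72.7 kb, had no Sox2-EGFP- and no E12 peak either. The coding exon was thus the *Neurod1* region open in Sox2-EGFP- cells, and the promoter and the 3 upstream regions had Sox2-EGFP+ peaks alone, in 2 or 3 lists each.

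*Neurod4* (chr10:129705209-129717296, ENSMUSG00000048015.3) had 1 region, its promoter at -21 bp (chr10:129717114-129717513). The fold enrichment was 11.4 in E14.5 Sox2-EGFP+ replicate 1 and 5.47 and 5.61 in the E16 Sox2-EGFP+ lists, with no peak in the other 6 lists. *Neurod6* (chr6:55627812-55631257, ENSMUSG00000037984.8) had 4. Its promoter region at +51 bp (chr6:55631064-55631310) had the fewest lists of any promoter of the 6 genes, with 3.98-fold and 4.84-fold in the E16 Sox2-EGFP+ lists. The intergenic regions at +4.2 kb (chr6:55626541-55627335) and +63.2 kb (chr6:55567827-55568688) had peaks in all 7 lists of E14.5 and E16 and in no E12 list. At +4.2 kb the fold enrichment was 11.3 and 5.14 in the E14.5 and 8.38 and 7.06 in the E16 Sox2-EGFP+ lists, against 4.37, 5.90 and 4.49 in the Sox2-EGFP- lists. At +63.2 kb it was 12.1, 5.62, 4.86 and 6.98 against 4.55, 3.86 and 4.42. At +63.2 kb every Sox2-EGFP+ value was above every Sox2-EGFP- value on this scale, the closest being 4.86 and 4.55. At +4.2 kb the ranges overlapped. The median fold enrichment of these lists ran from 4.28 to 7.75, and the share of all regions with such a separation was not counted. In the height scores given below, the groups overlapped at +63.2 kb.

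*Isl1*, the LIM homeodomain gene (chr13:117088478-117099896, ENSMUSG00000042258.5), had 9 regions, more than any other of the 6 genes. The promoter region at -83 bp was the region of the 6 genes with a peak in every list. Its fold enrichment was 7.94 and 5.91 at E12, 8.49 and 6.54 in the E14.5 and 8.52 and 6.42 in the E16 Sox2-EGFP+ lists, and 5.69, 9.78 and 7.03 in the Sox2-EGFP- lists, so that the cell types overlapped. The region at +15.7 kb had peaks in all 6 Sox2-EGFP+ lists, of 6.19 and 5.34-fold at E12, 6.08 and 4.14-fold at E14.5 and 5.02 and 5.34-fold at E16, and in no Sox2-EGFP- list. These 6 values ranged from 4.14 to 6.19. The regions at +12.2 kb (chr13:117087578-117088077), just beyond the 3' end of the gene, and at -133.7 kb (chr13:117233376-117234107) had peaks in all 4 Sox2-EGFP+ lists of E14.5 and E16, in neither E12 list and in no Sox2-EGFP- list. At +12.2 kb the fold enrichment was 4.21, 4.17, 4.76 and 5.51, and at -133.7 kb it was 13.8, 4.89, 8.33 and 6.51. The other 5 regions, at +30.1, +24.4, -134.5, -199.6 and -205.0 kb, each had peaks in 2 lists, at 4.14-fold to 8.97-fold.

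*Pou4f1*, the POU homeodomain gene (chr14:104862737-104867216, ENSMUSG00000048349.6), had 7 regions. Its promoter region at -62 bp (chr14:104866555-104867664) had a peak in 8 lists, all but E16 Sox2-EGFP- replicate 2. The fold enrichment was 5.00 and 5.67 at E12, 8.09 and 4.75 in the E14.5 and 6.39 and 6.79 in the E16 Sox2-EGFP+ lists, and 3.41 and 4.43 in the E14.5 and E16 Sox2-EGFP- lists that had a peak. All 6 Sox2-EGFP+ values were above both Sox2-EGFP- values, and the share of all regions with such a separation was not counted. The region at +7.4 kb (chr14:104859648-104860360) had peaks of 7.50, 4.39 and 4.40-fold in 3 Sox2-EGFP+ lists and of 3.65 and 3.82-fold in 2 Sox2-EGFP- lists. The other 5 regions, from -6.2 to +169.5 kb, had Sox2-EGFP+ peaks alone and no E12 peak, in 2 or 3 lists each.

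**Figure D3:**
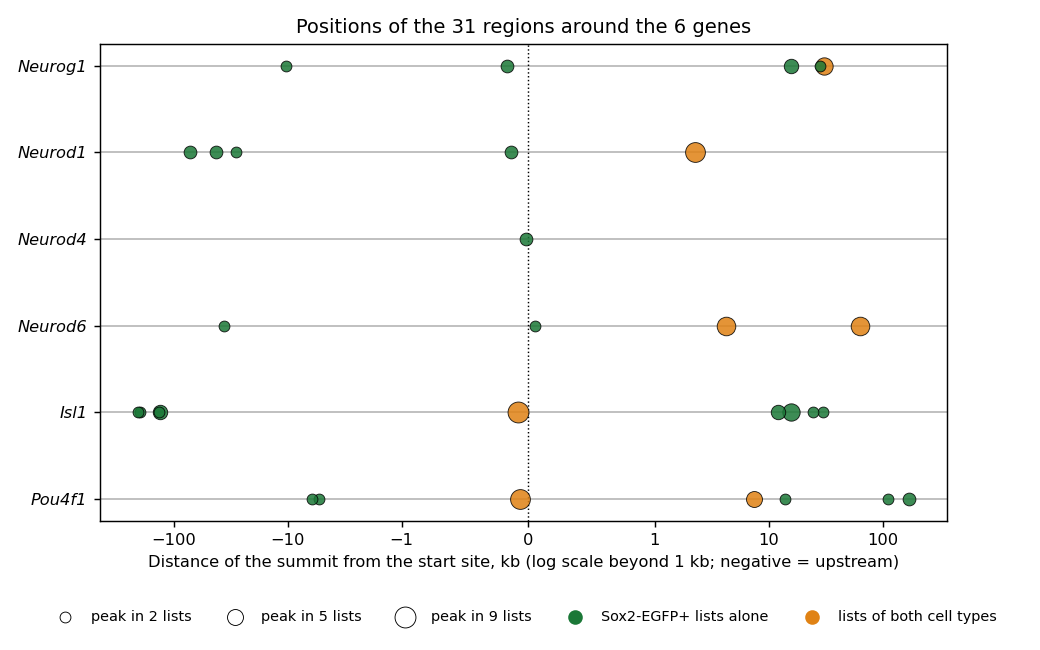
Positions of the 31 regions: distance of the summit from the start site in kb (linear within 1 kb, logarithmic beyond, negative upstream) for each of the 6 genes. Circle size gives the number of lists with a peak, green the 24 regions with Sox2-EGFP+ peaks alone and orange the 7 regions shared by both cell types. Every gene has a region within 1 kb of its start site, and the farthest region is that of Isl1 at -205.0 kb.

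All 6 genes had a promoter peak in at least 2 lists, with a promoter taken from 1000 bp before a start site to 100 bp after it. In the Sox2-EGFP+ lists, 2 and 2 promoters of the 6 had a peak at E12, 5 and 2 at E14.5 and 6 and 6 at E16. The Sox2-EGFP- lists had 2 at E14.5 and 2 and 1 at E16. The promoters with a peak in Sox2-EGFP- lists were those of the homeodomain genes *Isl1* and *Pou4f1*, and the 4 bHLH promoters had none. Their peaks in Sox2-EGFP+ lists ranked from 25520 to 53009, beyond the 23302 to 23899 peaks that the Sox2-EGFP- lists held. The E14.5 Sox2-EGFP+ replicate 2 list, of like length, had no bHLH promoter peak either. List length and cell type cannot be told apart at these promoters. Of the 22238 protein-coding genes, 36.5% and 23.9% had a promoter peak in the E12 lists, 63.8%, 50.5%, 60.7% and 62.4% in the later Sox2-EGFP+ lists and 54.7%, 55.4% and 54.5% in the Sox2-EGFP- lists. Of all regions within 1 kb of a start site 18.2% had Sox2-EGFP+ peaks alone, and 4 of the 6 such regions of these genes did. Those 4 are the bHLH promoters, so the same limit of list length holds for this share. Beyond 1 kb the shares were 20 of 25 (80%) for the 6 genes and 78.5% for all regions.

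To compare the height of peaks between lists of unequal length, each list was ranked by -log10 p. The score of a region ran from 100 for the highest peak of a list down towards 0 at the 20000th, and was 0 where no peak was among the 20000 highest. The 4 Sox2-EGFP+ lists of E14.5 and E16 were compared with the 3 Sox2-EGFP- lists by a two-sided exact permutation test over 35 splits, whose smallest p is 0.0286, adjusted by Benjamini-Hochberg over all 34145 regions tested. A region was called where the groups did not overlap. Of the 31 regions, 13 had a peak high enough to be tested, and 0 were called higher in either cell type, against 7.86% of all regions called higher in Sox2-EGFP+ and 8.87% in Sox2-EGFP- lists. None of the 13 had an unadjusted p under 0.05, against 3831 of all regions, of which 0 had an adjusted p under 0.05. Of these 13 regions, 6 had no Sox2-EGFP- peak in any list. They entered through Sox2-EGFP+ lists alone, which fixes the direction of their difference, so their scores are given with no test. Lists of the same stage and replicate number formed 3 pairs, which leave out E14.5 Sox2-EGFP+ replicate 1. In every pair, 3 of the 13 regions were higher in the Sox2-EGFP+ list and 0 in the Sox2-EGFP- list. Of these 3, the *Pou4f1* promoter had Sox2-EGFP- peaks. *Isl1* +15.7 kb and *Isl1* +12.2 kb had none, so their direction was fixed and their part of the count is a description. Over all regions the shares were 11.8% and 15.2%, and the smallest exact permutation p over 3 pairs is 0.25. Without E14.5 Sox2-EGFP+ replicate 1 and with no pairing the count was also 3, from the same regions. Without E16 Sox2-EGFP+ replicate 2 it was 2, the *Isl1* promoter and *Isl1* -133.7 kb, the latter with no Sox2-EGFP- peak. Without the E14.5 Sox2-EGFP- list it was 1, the *Pou4f1* promoter. The share of all regions called without a list is not given.

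The nearest to a call was the *Pou4f1* promoter, with scores of 10.3, 71.7, 34.3 and 46.5 in the Sox2-EGFP+ lists and 11.2, 0.29 and 0 in the Sox2-EGFP- lists. The difference was 36.9 (mean 40.7 ± 25.6, SD, n = 4, against 3.83 ± 6.39, n = 3, exact permutation p = 0.0857, adjusted 0.443). E14.5 Sox2-EGFP+ replicate 1, at 10.3, fell just below the E14.5 Sox2-EGFP- list, and without either of these 2 lists the groups did not overlap. *Isl1* -133.7 kb scored 62.8, 38.8, 35.2 and 0 against 0 in each Sox2-EGFP- list, a difference of 34.2. *Isl1* +12.2 kb scored 0, 41.6, 8.54 and 29.2 against 0, and *Isl1* +15.7 kb 0, 35.3, 7.29 and 0.71 against 0 (differences 19.8 and 10.8). In each of these 3 *Isl1* regions, 1 Sox2-EGFP+ list was at 0 because its peak ranked below the 20000th, E14.5 replicate 1 for +15.7 and +12.2 kb and E16 replicate 2 for -133.7 kb, and without that list the groups did not overlap. The *Neurod1* coding exon leaned the other way, with 13.1, 60.4, 50.2 and 0.605 in Sox2-EGFP+ and 83.3, 49.6 and 70.1 in Sox2-EGFP- lists, a difference of -36.6 (exact permutation p = 0.171, adjusted 0.504). Without E16 Sox2-EGFP- replicate 1, and within sequencing batch 2 alone, which leaves out both E16 replicates numbered 1, every Sox2-EGFP- list stood above every Sox2-EGFP+ list. The *Isl1* promoter scored 81.6, 90.8, 80.2 and 60.3 against 65.9, 70.4 and 69.3, a difference of 9.68 (exact permutation p = 0.257, adjusted 0.635), and without E16 Sox2-EGFP+ replicate 2, the lowest of its group, the groups did not overlap. With peaks ranked by fold enrichment in place of -log10 p, this difference turned to -42.5, so the direction at the *Isl1* promoter rests on the measure of height.

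With all peaks of each list, where the score falls to 0 only without a peak, 6 of the 31 regions were called higher in Sox2-EGFP+ lists and 0 in Sox2-EGFP- lists. The first count was 12 without E14.5 Sox2-EGFP+ replicate 2, the shortest of the 4. The Sox2-EGFP+ lists left were all longer than every Sox2-EGFP- list. The regions added in this way had no Sox2-EGFP- peak, so their direction was fixed and their part of the count is a description. The second count was 1, the *Neurod1* coding exon, without E16 Sox2-EGFP- replicate 1. The share of all regions called without a list is not given. With no list left out, the same rule called 11.2% of all 69412 regions higher in Sox2-EGFP+ and 2.72% in Sox2-EGFP- lists. On this scale, on which 3 of the 4 Sox2-EGFP+ lists were longer than every Sox2-EGFP- list, the median difference over all regions was 15.5, against 0.379 with the 20000 highest peaks. Of the 6, the *Isl1* promoter (difference 17.7), the *Pou4f1* promoter (61.3) and *Neurod6* +4.2 kb (36.0) had peaks in both cell types, each with an exact permutation p of 0.0286 and an adjusted p of 0.32. The others were *Isl1* +15.7 kb (58.3), *Isl1* +12.2 kb (55.9) and *Isl1* -133.7 kb (66.7), which had no Sox2-EGFP- peak and entered through Sox2-EGFP+ lists alone, so that scores of 0 in the Sox2-EGFP- lists are a description and not a test. The *Isl1* +15.7 kb region scored 67.0, 43.6, 52.8 and 69.9 in the Sox2-EGFP+ lists and 0 in all 3 Sox2-EGFP- lists. The *Pou4f1* promoter scored 72.9, 75.3, 66.6 and 83.8 against 23.8, 16.4 and 0. *Neurod6* +4.2 kb scored 69.5, 53.0, 66.3 and 68.8 against 37.9, 31.1 and 16.1, while with the 20000 highest peaks its groups overlapped, at 0, 46.0, 33.8 and 0 against 27.7, 17.9 and 0. All 6 differences were larger than 15.5, and 4 of the 6 regions belonged to *Isl1*. The *Neurod1* coding exon scored 73.8, 65.5, 74.7 and 69.8 against 85.7, 57.7 and 74.9 (difference -1.82, exact permutation p = 0.80). No *Neurog1* region was called, and its promoter scored 26.5, 0, 20.2 and 48.8 against 0 (difference 23.9), again with no Sox2-EGFP- peak.

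**Figure D4:**
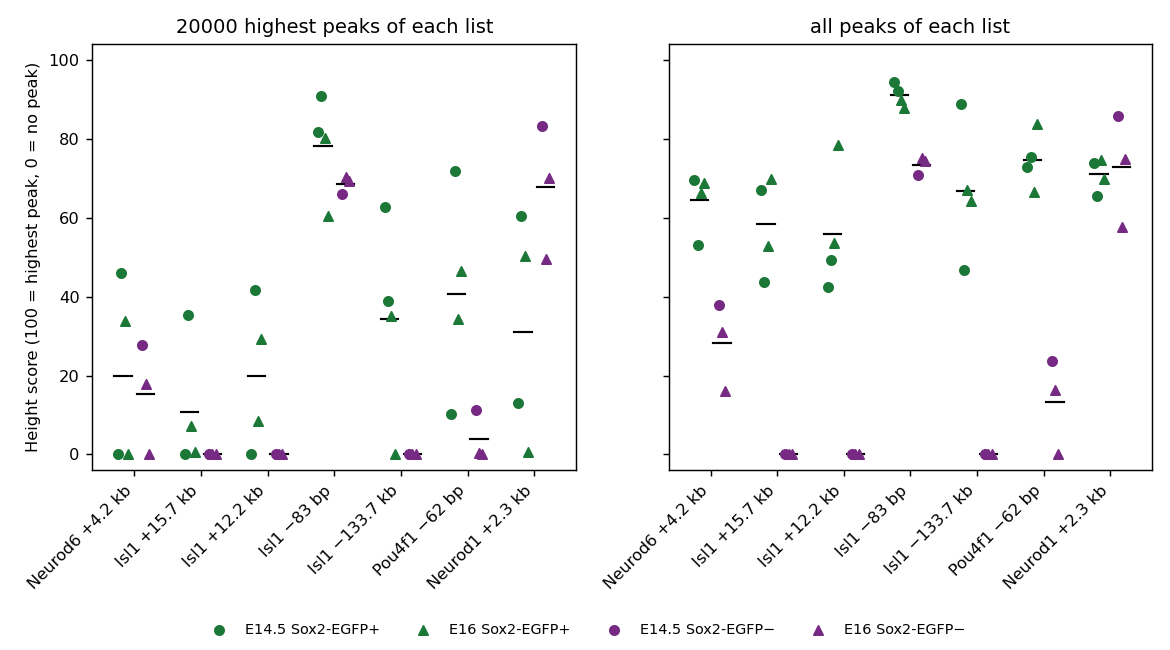
Height scores of 7 regions in the 7 lists of E14.5 (circles) and E16 (triangles), Sox2-EGFP+ in green and Sox2-EGFP- in purple, with the 20000 highest peaks of each list (left) and with all peaks (right). Horizontal bars are group means. On the left the groups overlap in all 7 regions, and on the right they do not overlap in 6, the exception being the Neurod1 coding exon.

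Counted per gene among the 20000 highest peaks of each list, *Isl1* had 2, 4, 4 and 3 peaks in the Sox2-EGFP+ lists of E14.5 and E16 and 1, 1 and 1 in the Sox2-EGFP- lists. The groups did not overlap (3.25 ± 0.957, SD, n = 4, against 1 ± 0, n = 3, difference 2.25, exact permutation p = 0.0571, adjusted 0.608). The groups overlapped within 100 kb of the start site, which leaves out the -133.7 kb region, with the 10000 highest peaks, and with peaks ranked by fold enrichment. Since 8 of the 9 *Isl1* regions entered through Sox2-EGFP+ lists alone, this count leans on the same choice of peaks. *Isl1* was 1 of the 5 genes with such a peak, *Neurod4* having none, and 5.22% of all 15671 genes tested were called higher in Sox2-EGFP+ and 4.33% in Sox2-EGFP- lists. The counts of the others overlapped. *Neurog1* had 0 in each Sox2-EGFP+ list and 1, 1 and 0 in the Sox2-EGFP- lists, *Neurod1* 1, 1, 2 and 2 against 1, 1 and 1, *Neurod6* 1, 2, 1 and 0 against 2, 1 and 0, and *Pou4f1* 1, 3, 1 and 1 against 2, 1 and 0. Peaks of a bulk sample do not tell fewer cells with an open region from less open DNA in each cell.

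Genes upstream of otic neurogenesis were counted in the same way. Of 10 such genes tested, *Sox2*, *Gata3*, the Notch ligand gene *Dll1* and *Fgf3* had more peaks in Sox2-EGFP+ lists and *Tbx1*, a repressor of the otic neural fate, had fewer, while the groups overlapped for the rest, among them *Eya1*, *Lfng*, *Fgf10* and *Otx1*. *Dll1* had 2, 2, 2 and 3 peaks against 1, 1 and 1, and *Gata3* 4, 5, 5 and 4 against 1, 2 and 2 (exact permutation p = 0.0286 and adjusted p = 0.339 for each). *Fgf3* had 2, 1, 1 and 2 against 0, and *Tbx1* 0 in each Sox2-EGFP+ list against 1, 1 and 1. *Fgf3* and *Tbx1* each entered through 1 cell type alone, which fixed the direction, so their counts are a description and not a test. The sizes of these lists are small, and the counts stand beside backgrounds of 5.22% and 4.33%. Of 10 paralogs of the 6 genes that were tested, 1 was called, *Isl2*, with 2, 2, 2 and 2 peaks in Sox2-EGFP+ lists and 1, 1 and 0 in Sox2-EGFP- lists. Of 18 markers of differentiated neurons tested, 0 were called higher in Sox2-EGFP+ lists, and 1 was lower, *Nefl*, a neurofilament gene, with 0, 1, 0 and 0 peaks against 3, 3 and 2. The neuronal list had a median difference of -0.208 peaks per gene, the 5 neurogenesis genes tested 0.5 and all genes 0. Between 8 and 12 of the 19 neuronal marker promoters had a peak in each list of E14.5 and E16, in Sox2-EGFP+ lists 12, 8, 11 and 10 and in Sox2-EGFP- lists 10, 10 and 8.

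Markers of other cells that the sorts could hold stood as follows beside these counts. Of 6 glial and Schwann cell markers tested, 0 were called in either direction, and their promoters had a peak for 5, 2, 4 and 5 of 8 genes in the Sox2-EGFP+ lists and for 3 of 8 in each Sox2-EGFP- list. Of 5 hair cell markers tested, *Barhl1* was higher in Sox2-EGFP+ lists (1, 1, 2 and 1 peaks against 0). Higher in Sox2-EGFP- lists were 4 of 7 mesenchymal markers (*Tbx18*, *Prrx1*, *Twist1* and *Col1a2*), 2 of 5 endothelial markers (*Kdr* and *Emcn*) and 1 of 3 macrophage markers (*Clec7a*). Higher in Sox2-EGFP+ lists were 3 of 11 prosensory markers (*Sox2*, *Fgf20* and *Gata3*) and 2 of 4 epithelial markers (*Grhl2* and *Esrp1*). Among the 20000 highest peaks, *Barhl1* and *Esrp1* had none in these Sox2-EGFP- lists, and *Prrx1*, *Col1a2* and *Clec7a* none in these Sox2-EGFP+ lists. Their direction was thus fixed, and their part of the counts is a description. The part of cell composition in the differences at the 6 genes was not tested.

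By stage, few regions of the 6 genes had a peak at E12, where the lists were shortest. A peak in at least 1 of the E12 lists was found at 7 of the 31 regions (22.6%), against 21.3% of all regions with a Sox2-EGFP+ peak. They were *Neurog1* +30.4 and +15.8 kb, *Neurod1* +2.3 kb, *Isl1* +15.7 kb, -83 bp and -199.6 kb, and the *Pou4f1* promoter, and 3 of them had a peak in both E12 lists. The promoters of *Neurog1*, *Neurod1*, *Neurod4* and *Neurod6* had none at E12.

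Height scores of the 2 E12 lists and the 4 later Sox2-EGFP+ lists were compared with the 7500 highest peaks of each, over 15 splits, whose smallest exact permutation p is 0.0667. Of 7 regions of the 6 genes with such a peak, *Isl1* +15.7 kb was called higher at E12, at 21.3 and 36.1 against 0 later (difference 28.7). It entered through the E12 lists alone, which fixes the direction, so these scores are a description and not a test. In the 4 later lists its peaks ranked 21906, 12948, 18542 and 19859, below the 7500 highest. Scored over whole lists, the region stood at 57.3 and 36.8 at E12 and at 67.0, 43.6, 52.8 and 69.9 later. No region was called with a -log10 q of at least 5 or with the 5000 highest peaks. Without E14.5 replicate 2 the count was 2, *Isl1* +15.7 kb and the *Isl1* promoter. Without either E12 replicate only 1 E12 list is left, so no counts are given for those settings. The shares of all regions called under these changed settings are not given. None was called higher at E14.5 and E16. Of all 13573 regions, 6.56% were called higher at E12 and 7.55% later, and 0 could reach an unadjusted p under 0.05. The *Isl1* promoter scored 83.7 and 60.3 at E12 and 50.8, 75.4, 47.3 and 0 later, and the groups overlapped (difference 28.6). The *Pou4f1* promoter scored 0 and 45.9 at E12 and 0, 24.5, 0 and 0 later. A region near the top of a short list at E12 can stand lower in a longer list, and list length and stage cannot be told apart here. Between E14.5 and E16 the Sox2-EGFP+ replicates of a stage differed as much as the stages did: at E14.5 replicate 1 had peaks at 30 of the regions and replicate 2 at 11, and at E16 replicates 1 and 2 had 16 and 29.

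The regions of the 6 genes were of ordinary width, with a median of 550 bp (247 to 1233 bp) against 577 bp over all regions. By position, 6 lay in promoters, 1 in an exon and 24 between genes, and none lay in an intron. The farthest lay 205 kb from its start site, well inside the limit of 500 kb. Summed over the regions of a gene, the heights in the 9 lists rose and fell together among *Neurog1*, *Neurod1*, *Isl1* and *Pou4f1*, with Pearson's r from 0.860 (*Neurod1* and *Pou4f1*) to 0.954 (*Isl1* and *Pou4f1*), a description over 9 lists that share the same lengths. Of 4716 genes with at least 5 regions, the profiles most like that of *Isl1* were those of *Rspo2* (r = 0.995) and *Fam188a* (0.995), and those most like that of *Pou4f1* were *1700069B07Rik* (0.982), *Fam5b* (0.976) and *Otol1* (0.974). For *Neurog1* they were *Cdh13*, *Mrpl15* and *Gm17546* (0.995 each), and for *Neurod1* they were *Naf1* (0.997), *Ranbp9* (0.990) and *Dnm3* (0.990).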

How the data were processed

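ATAC-seq peak lists of 9 samples in mm9 were used, grouped by sample title. As the methods describe, reads were trimmed with Trim Galore, aligned with Bowtie2 and filtered with Picard and SAMtools. Peaks were called in each sample with MACS2, and a peak was kept where a second sample of the same cell type had an overlapping one, so each region here has peaks in at least 2 lists. The fold enrichment that the authors deposited for each peak is a ratio of its pileup to the local background. The −log10 p and −log10 q of each peak are likewise deposited as MACS2 gave them to the authors, and the deposited score of each peak was not used. Tool versions are not given in the sources used here. The lists hold no reads, so the edgeR test of the study was not repeated and the precision of a height rests on the spread between lists.

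Peaks were merged at 100 bp and assigned by their highest summit to the nearest GENCODE vM1 start site within 500 kb, on the reference of the same build, with 0 regions past a chromosome end. Scores were compared by two-sided exact permutation tests with Benjamini-Hochberg adjustment over all regions or genes (Python 3.11.15, numpy 2.4.6). Merging was checked against bedtools 2.31.1, and the tests were tested on simulated data. Figures were drawn with matplotlib 3.10.9. Sequences were read from the mm9 reference.

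All regions of the 6 genes were counted. Values are given for the region nearest to each start site, the highest region of each gene in either cell type, every region with a peak in all Sox2-EGFP+ or all Sox2-EGFP- lists, every called region and some others chosen after their values were seen. Genes with a like pattern are the 3 with the highest Pearson correlation, of which 1 is not reported here, and 1 gene of the upstream list is not named. The genes, the lists of markers and the motifs were chosen with earlier results of these data known. By the supplementary sample table, sequencing batch 1 held replicate 1 of both cell types at E16, and batch 2 all others. Each Sox2-EGFP+ replicate came from its own litter, and p-values measure the spread between these samples.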

Additional observations from a re-analysis of the deposited data

Results flagged for a closer look

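Among 17 sets of values of the 6 genes with 4 or 6 Sox2-EGFP+ lists, 2 held a list far from the others, and chance flags about 1 in 20 sets. At *Neurod6* +63.2 kb, the −log10 p was 39.0 in E14.5 Sox2-EGFP+ replicate 1 and 10.9, 8.49 and 12.9 in E14.5 replicate 2 and E16 replicates 1 and 2. At *Isl1* +15.7 kb, it was 34.3 in E14.5 Sox2-EGFP+ replicate 1 and between 7.74 and 15.5 in the other 5 Sox2-EGFP+ lists. The median −log10 p over all peaks of that list was 23.7, against 8.46 to 13.8 in the other Sox2-EGFP+ lists, and the fold enrichment at both regions did not set it apart (12.1 and 6.08).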

How the results depend on the processing

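The count of regions with Sox2-EGFP+ peaks alone moved from 24 to 9, and that of regions in all from 31 to 15, with the 20000 highest peaks. It stayed within 1.5 times under the other settings, among them a larger overlap of the peak with the merged region added after the data were seen, because the planned one always holds for merged peaks. The count of regions higher in Sox2-EGFP+ lists, 0 with the 20000 highest peaks, was 6 with all peaks and 0 to 3 when each list was left out. The count of regions higher in Sox2-EGFP- lists was 1 in batch 2 alone and 0 to 1 when each list was left out. Without E16 Sox2-EGFP- replicate 2 it was *Neurog1* +30.4 kb, which scored 0 in every Sox2-EGFP+ list, so its direction was fixed. Without the samples whose tag contradicts the title, the E14.5 list is the only Sox2-EGFP- list left. No counts are therefore given for that setting. With all peaks, the count of 6 ranged from 6 to 12 when each list was left out, with 12 without E14.5 Sox2-EGFP+ replicate 2. That of regions higher in Sox2-EGFP- lists was 1 in batch 2 alone and 0 to 1 when each list was left out. These settings were chosen after seeing the data, and the share of all regions called is not given for them.

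*Isl1* was not called by peaks per gene (0 genes) within 100 kb, with the 10000 highest peaks or when ranked by fold enrichment. Without E16 Sox2-EGFP- replicate 2, 1 gene, *Neurog1*, was higher in Sox2-EGFP- lists, with 1 and 1 peaks against 0. *Neurog1* entered through Sox2-EGFP- lists alone, which fixed the direction, so this call is a description and not a test. Without any other single list 0 were. By stage, 0 regions were higher at E12 with a −log10 q of at least 5 or with the 5000 highest peaks. The count was 1 to 2 when each list of E14.5 and E16 was left out, with 2 without E14.5 replicate 2. Without either E12 replicate only 1 E12 list is left, so no counts are given. The shares of all regions called under these settings are not given.

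Single differences that changed sign were *Neurog1* +30.4 kb with all peaks (0.325) and the *Isl1* promoter ranked by fold enrichment (-42.5). *Neurod6* +63.2 kb became -10.8 without the samples whose tag contradicts the title, -7.87 without E14.5 Sox2-EGFP+ replicate 2 and -0.339 without either E16 Sox2-EGFP- list, and 15.2 without the E14.5 Sox2-EGFP- list. *Neurod6* +4.2 kb became -1.08, -3.92 and -2.83 without the samples whose tag contradicts the title, E14.5 Sox2-EGFP+ replicate 2 and E16 Sox2-EGFP- replicate 2, and 11.4 without E14.5 Sox2-EGFP+ replicate 1. The cause was not tested.

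Whether lists of the same stage and number shared a litter is not given for each sample. By the study's methods some Sox2-EGFP- cells were isolated beside Sox2-EGFP+ cells, and the 2 E16 lists numbered 1 shared sequencing batch 1. The deviations of the 3 pairs correlated by 0.08, 0.19 and 0.05, and each list correlated best with the other list of its pair. Only 0.19 was above the threshold of 0.1 set for pairing, and it belongs to the pair that shared batch 1. Litter, batch and stage cannot be told apart in these values. With the replicate block, which leaves out E14.5 Sox2-EGFP+ replicate 1, 3 regions were higher in Sox2-EGFP+ lists with the 20000 highest peaks and 7 with all peaks, and 1 gene and 1 region by stage, as without it. The counts of 3 and 7 take in *Isl1* regions with no Sox2-EGFP- peak, whose direction was fixed. With no reads, a region without a peak cannot be told from one below the limit of peak calling, and the short E12 lists limit what can be seen at that stage.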
